A study of Rattus norvegicus with 24 samples.

Results

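Expression in the rat nucleus accumbens was measured with the Affymetrix Rat Transcriptome Array 1.0, and 653 of its 68842 transcript clusters are described here: clusters annotated as protein coding, or as both coding and noncoding (Complex), that carried no gene name and were expressed. A transcript cluster is the set of probes placed on 1 annotated stretch of the genome, and its signal is a log2 value. A cluster counted as unnamed when its symbol field was blank or held only a provisional token, namely an identifier that starts with RGD, LOC, XLOC, MTA or TCONS. Members were chosen by their measured control level: the mean signal in the control rats had to exceed 9.45, which was the level of the spiked bioB hybridization control in those rats. Of the 653 members, 557 (85.3%) were Coding and 96 were Complex. The same threshold left 9044 clusters in all, of which 3959 were coding or complex clusters with a gene name and 1261 were noncoding, while 6141 unnamed coding or complex clusters lay under it.

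The arrays came from 24 male Sprague Dawley rats, 1 array per rat. The shock-resistant rats (SR, n = 6) self-administered methamphetamine and went on doing so when footshocks were added, and the shock-sensitive rats (SS, n = 6) took the drug and reduced their intake under shock. SR and SS were sorted after the behaviour from 1 pool of drug-trained rats. Saline rats yoked to SR (YSR, n = 3) or to SS (YSS, n = 3) received the shocks of their partners regardless of their own behaviour. Control rats (CT, n = 6) had saline, and the paper describes no footshocks for them. It reports more footshocks for YSR than for YSS rats. Drug and shock therefore cannot be told apart in SR or SS against CT, nor drug intake and shock number in SR against SS. All rats were killed after about a month of withdrawal and a cue test, no age is stated, and the sample titles of SR, SS and CT carry a mark that those of YSR and YSS lack. The meaning of that mark is unknown, so if it stands for a batch, batch and group cannot be told apart in a comparison of a yoked group with another. All 12 markers examined for medium spiny neurons, a neuron type of this tissue, were above the threshold (9.82 to 15.2 in CT). Of them, 0 had an unadjusted p under 0.05 (limma) in SR against CT. Of 4 oligodendrocyte markers above the threshold, 3 were higher at an unadjusted p under 0.05 in SR than in CT, with a median difference over the 4 of 0.27. The part of myelinating cells in the results below was not tested. In bulk tissue, fewer cells of a type and less RNA per cell cannot be told apart.

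Provisional tokens mark several kinds of locus. Some are pieces of known genes that the annotation kept apart, some are open reading frames predicted from the genome or from sequenced RNA, and many are retrocopies. A retrocopy forms when a messenger RNA is copied back into DNA and inserted elsewhere in the genome, where it lacks the introns of its parent gene and, as a rule, its promoter. Most retrocopies are processed pseudogenes, and they are most frequent for short, abundant messages such as those of ribosomal proteins, glyceraldehyde-3-phosphate dehydrogenase and elongation factors. Rodent genomes hold many of them, and a copy that is nearly identical to its parent can share probes with it.

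Of the 653 members, 172 (26.3%) had a blank symbol, 316 had an RGD token and no LOC token, 138 had a LOC token and 27 had only XLOC, MTA or TCONS tokens. RefSeq (assembly GRCr8) paired 150 members with 1 current gene each, of which 122 were protein coding and 28 were pseudogenes. An Ensembl record in the deposited annotation covered 445 members, 395 of them as protein coding and 48 as a pseudogene. By the product text, 97 members were described as ribosomal proteins, 7 as glyceraldehyde-3-phosphate dehydrogenase, 16 as cytoskeletal proteins, 15 as zinc finger proteins, 10 as translation factors, 9 as mitochondrial enzymes or carriers and 8 as histone or chromatin proteins. A further 173 had no product description (for some of them protein domains are listed), 92 had ontology terms only, 92 were uncharacterised products and 120 were other named products. The remaining 14 were chaperones or isomerases (5), ubiquitin-related proteins (5) and RNA-binding proteins (4).

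Some copies can be seen in the sequences around annotated transcription starts. RefSeq gave a start window for 102 members, and for 29 of these a window of the gene after which the member is named was there too. In 15 of the 29 pairs both windows, of 250 bases before and 50 bases after the start, held an identical run of 20 bases or more. Windows of 3 such pairs are shown from 50 bases before to 50 bases after the start, with the shared run in capitals, since they show where a copy begins to follow its parent. Eef1a1l1 is a copy of Eef1a1, the elongation factor that brings aminoacyl-tRNA to the ribosome, and is the member TC0X00002618. Rplp2l2 (TC1500000958) and Rpl37l2 (TC1300001061) are named after the ribosomal protein genes Rplp2 and Rpl37. The windows lie at chrX:153525330-153525429 (+) for Eef1a1l1, chr8:88225020-88225119 (-) for Eef1a1, chr15:74046722-74046821 (+) for Rplp2l2, chr1:205975871-205975970 (+) for Rplp2, chr13:105800788-105800887 (+) for Rpl37l2 and chr2:55942895-55942994 (+) for Rpl37, all on GRCr8.
Eef1a1l1: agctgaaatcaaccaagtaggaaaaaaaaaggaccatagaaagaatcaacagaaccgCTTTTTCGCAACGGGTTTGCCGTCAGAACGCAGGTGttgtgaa
Eef1a1: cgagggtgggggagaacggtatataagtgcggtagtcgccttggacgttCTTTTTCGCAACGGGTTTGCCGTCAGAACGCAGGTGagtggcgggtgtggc
Rplp2l2: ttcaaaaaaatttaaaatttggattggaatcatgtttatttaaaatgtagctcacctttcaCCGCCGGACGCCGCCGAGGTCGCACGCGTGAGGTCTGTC
Rplp2: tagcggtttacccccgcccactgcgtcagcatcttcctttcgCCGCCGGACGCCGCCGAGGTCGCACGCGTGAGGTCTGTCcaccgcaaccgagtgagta
Rpl37l2: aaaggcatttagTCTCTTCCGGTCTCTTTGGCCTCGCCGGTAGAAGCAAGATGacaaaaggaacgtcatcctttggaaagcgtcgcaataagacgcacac
Rpl37: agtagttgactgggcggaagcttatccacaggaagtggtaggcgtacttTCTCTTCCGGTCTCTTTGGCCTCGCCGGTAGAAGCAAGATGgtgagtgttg

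The shared run was 36 bases long in the Eef1a1 pair, 39 bases in the Rplp2 pair and 41 bases in the Rpl37 pair. In Eef1a1 and Rpl37 it began 1 base before the annotated start of the parent gene, and in Rplp2 it began 8 bases before it. The longest run in the 29 pairs was 66 bases, between Epc2l1 and Epc2. It lay wholly before the annotated start of Epc2, at -181 to -116. The runs shared with Klhdc2 (-88 to -65) and Hbb (-81 to -60) also lay before the start of the gene. Not every shared run therefore marks a copy that begins at its parent's start.

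Members were short. Their span, from the first to the last base in the deposited table, had a median of 1745 bp (quartiles 562 and 11350 bp), against 39606 bp for coding or complex clusters with a name and 329 bp for noncoding clusters past the same threshold. Spans under 1 kb were found for 37.8% of members (245 of the 649 with a position), against 2.90% of the named clusters. Over all clusters past the threshold the share was 40.3%. The set of 30 probes, a frequent size on this array, served 349 members (53.4%), 5.78% of the named clusters and 52.0% of all clusters past the threshold. Complex members had a median span of 1018 bp and Coding members 2056 bp. The unnamed coding or complex clusters under the threshold had nearly the same median span, 1676 bp.

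The longest members were exceptions of gene size. TC1900000726 (RGD1304884, 6430548M08Rikl in RefSeq) spanned 979328 bp at chr19:52762855-53742182 and overlapped the clusters of Foxf1, Foxc2, Foxl1 and Map1lc3b on its own strand. TC0400000802 (chr4:75323366-76232260) spanned 908895 bp and was matched to Cntnap2, a neurexin-family protein of the axon membrane. The shortest members were TC0100005190, 65 bp at chr1:89718553-89718617 near Scgb2b2, and TC1800001431, 100 bp at chr18:47933203-47933302 with no description. Cluster coordinates follow the deposited annotation, for which no build was named.

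**Figure D1:**
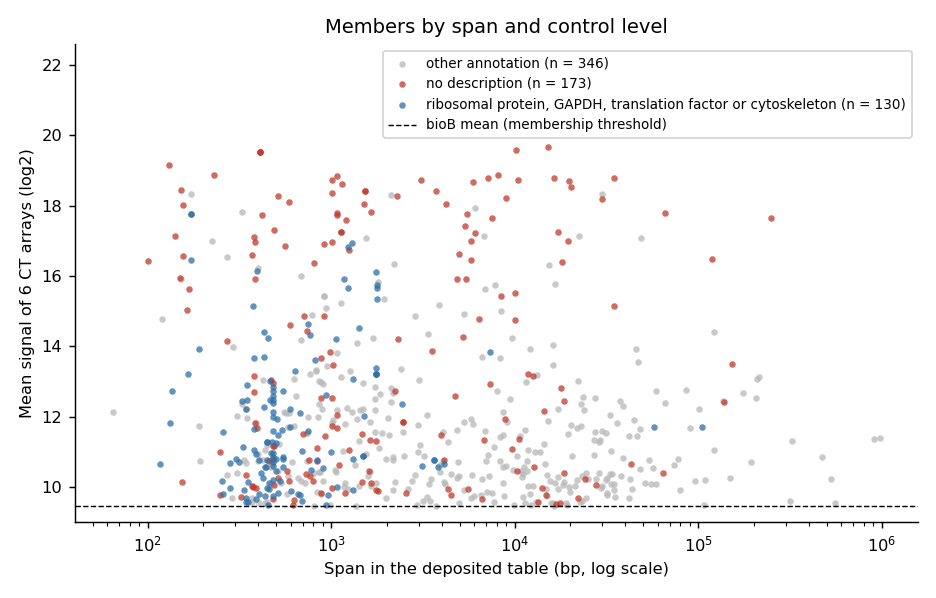
Span of each member with a position (bp, log scale, x axis) against its mean log2 signal over the 6 CT arrays (y axis), 1 point per member, coloured by annotation. Members with no description reach the highest levels, and the membership threshold (dashed line) lies at 9.45.

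Members were spread over the genome, with 328 on the plus and 321 on the minus strand. Chromosome 1 held 83 members (12.7%, against 9.83% of named clusters), the X chromosome 45 (6.89% against 4.40%) and chromosome 17 33 (5.05% against 3.13%). A named cluster was overlapped by 151 members, by 69 on the same strand and by 90 on the opposite strand. The median distance to the nearest named cluster was 25386 bp, and 189 members lay over 100 kb from any. In 10 sets, 22 members shared all 24 values with another member, so that the 653 members stood for 641 distinct profiles.

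The control level, which chose the members and is given as a description, had a median of 11.4 on the log2 scale (quartiles 10.3 and 13.3), against 11.01 for named clusters and 11.7 for noncoding ones. Levels above 16 were found for 85 members (13.02%), for 2.20% of named clusters and for 21.0% of noncoding clusters. The share over all clusters past the threshold was 23.15%, above that of members. The members with a blank symbol stood apart: their median was 13.4 and 64 of 172 (37.2%) were above 16, whereas members with a token had a median of 11.04 and 4.37% above 16. The within-group SD had a median of 0.214 over members, 0.159 over named clusters and 0.329 over noncoding clusters. On all 24 arrays, 418 members exceeded the 95th percentile of the 1153 negative controls, and 12 exceeded it on none.

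The 5 members with the highest control level had no description. TC0100002535 (chr1:192394950-192410047, inside the span of Prkcb, which encodes a protein kinase C) averaged 19.7 in CT and TC0900000637 (chr9:55325221-55335402, 48698 bp from Tmeff2) averaged 19.6. TC0600000366, TC1400000568 and TC1400000563, of 411 bp each and on chromosomes 6 and 14, gave the same values, with a CT median of 19.6. Among the members with a current RefSeq name, the highest in CT were Ubcl1 (ubiquitin C family), Rpl31-ps11 (ribosomal protein), Eef1a1l1, Eif1-ps8 (translation initiation factor), Tuba1a-ps1 (alpha tubulin), Tma7l1, Hspa8-ps31 (heat shock cognate protein) and Rpl31-ps10. The lowest, median and highest CT values were 15.9, 16.3 and 16.4 for Ubcl1, the first of these, and 14.9, 15.2 and 15.3 for Rpl31-ps10, the last. At the threshold, the members just inside were a globin cluster on an unplaced contig (CT mean 9.456) and TC0400002454 (Yae1l1, 9.459). The unnamed clusters just outside were TC1900001260 (9.450) and TC1100001380 (9.449).

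The comparison of SR with CT asks which clusters differed between rats that kept taking the drug under punishment and saline controls. Of the members, 11 were higher and 4 were lower in SR at an adjusted p under 0.05 (limma, adjusted over all 9044 clusters). Over all tested clusters 1.99% were called, 1.74% higher and 0.254% lower, so the members called higher (1.68% of members) were at the background share and those called lower were 0.613%. With each array shifted to an equal median the members called were 31 higher and 3 lower, and after quantile normalization 10 higher and 6 lower. The shares over all tested clusters in these fits are not given, so the counts do not compare members with the rest. The equal medians also moved the median SR minus CT difference of all tested clusters to 0.14, from 0.03 as deposited. The members had a median difference of 0.09 as deposited, and before adjustment 150 members were higher and 49 lower at p under 0.05 (15.9% and 5.38% of all tested clusters). In the fit of SR and CT alone, 0 members were called.

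The cluster with the smallest p among members was TC1000004157, a 12514 bp cluster of 80 probes at chr10:105216034-105228547 on the minus strand. It carries ontology terms for binding of poly(A) RNA and of the signal recognition particle, and its identifier is shared with Srp68, a subunit of the particle that docks ribosomes at the endoplasmic reticulum, whose own cluster lies 65445 bp away. Its lowest, median and highest log2 signals were 10.28, 10.54 and 10.74 in SR, 10.03, 10.12 and 10.24 in SS, and 9.78, 10.05 and 10.18 in CT. The yoked rats had 10.09, 10.12 and 10.29 in YSR, and 10.01, 10.02 and 10.25 in YSS. All 6 SR rats lay above all CT rats and above all SS rats. The difference of SR from CT was 0.50 ± 0.087 (SE; adjusted p = 0.0159, limma), a 1.41-fold higher level, and without SR replicate 3 no member at all was called. The signal was above the 95th percentile of the negative controls on 11 of 24 arrays. Srp68 itself was 0.24 ± 0.061 higher in SR (adjusted p = 0.0432, limma).

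TC0600003130 (chr6:131602158-131650320), whose terms name histone H3-K36 methylation, a mark of transcribed gene bodies, had lowest, median and highest signals of 11.81, 11.98 and 12.06 in SR, against 11.44, 11.66 and 11.79 in CT. All 6 SR rats were above the CT range, and the difference was 0.33 ± 0.067 (adjusted p = 0.0245, limma). TC0600002530 (LOC500654, chr6:79173469-79173894), similar to the RNA helicase eIF4A1 of translation initiation, had 10.67, 10.73 and 10.97 in SR, against 10.08, 10.24 and 10.51 in CT. These ranges did not overlap either, the difference was 0.50 ± 0.113 (adjusted p = 0.0308, limma), and 5 of 6 SS rats and 4 of 6 yoked rats were also above the CT range.

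The remaining 8 members called higher were of several kinds. TC1700001607 (RGD1563601, chr17:27764418-27765806), similar to triosephosphate isomerase, had 14.16, 14.61 and 14.68 in SR, against 13.93, 14.08 and 14.29 in CT, with 4 of 6 SR rats above the CT range (difference 0.40 ± 0.090, adjusted p = 0.0302, limma). The glyceraldehyde-3-phosphate dehydrogenase copies TC0800000514 on chromosome 8 and TC0500001014 on chromosome 5 were 1.29-fold and 1.22-fold higher in SR (adjusted p = 0.0446 and 0.0472, limma). TC0X00001478, a 165 bp cluster similar to alpha tubulin, was 1.35-fold higher (adjusted p = 0.0464, limma). TC0200004956 (chr2:264050594-264051669), described only by the domains of an RNA-binding protein, was 1.40-fold higher in SR (0.49 ± 0.121, adjusted p = 0.0381, limma), with 5 of 6 SR rats above all CT rats. The others were the processed pseudogenes TC1400001308 inside Abcg3l1 and TC0600001674, and TC1800000588, which RefSeq names Minar2. In SS against CT, which shares the CT rats with this comparison, the differences of these 11 members lay between 0.10 and 0.47, and 72.5% of all tested clusters had a positive difference there.

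The 4 members called lower in SR all had a blank symbol. TC0900002115, an 803 bp cluster of 10 probes at chr9:71238652-71239454, lies on the strand opposite Creb1, the cAMP-responsive transcription factor gene, within its span. Its lowest, median and highest signals were 13.84, 15.50 and 16.01 in SR, 15.71, 15.91 and 16.26 in SS, and 15.93, 16.41 and 16.72 in CT. In the yoked rats it had 15.82, 15.97 and 16.27 in YSR, and 15.80, 16.40 and 16.50 in YSS. Of the SR rats 5 were below the CT range, and the lowest of them was SR replicate 5. The difference was -1.11 ± 0.261 (adjusted p = 0.0361, limma), a 2.16-fold lower level in SR. TC0600002087 and TC1400001816, which gave the same values from chromosomes 6 and 14, were 0.49 ± 0.123 lower (adjusted p = 0.0381, limma), and TC0200001507, with the domain of an HMG box DNA-binding protein, was 1.64-fold lower in SR (adjusted p = 0.0396, limma).

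**Figure D2:**
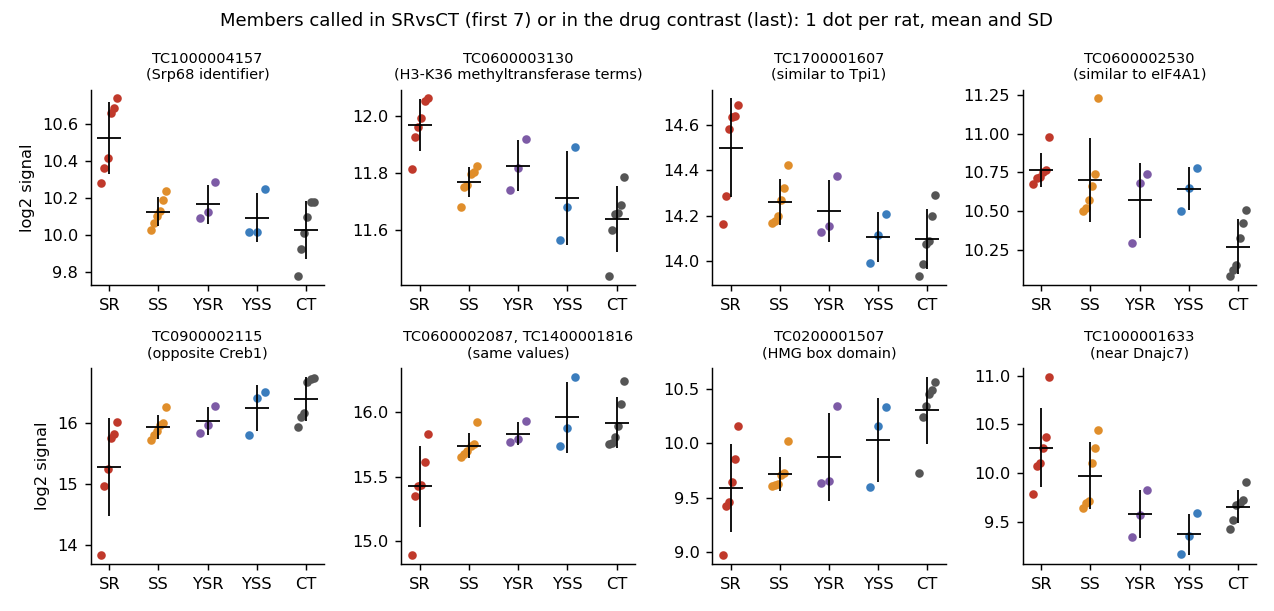
Log2 signal (y axis) of 8 member profiles in SR, SS, YSR, YSS and CT, 1 dot per rat, with the mean (dash) and SD (bar). In TC1000004157, TC0600003130 and TC0600002530 the 6 SR rats lie above the 6 CT rats, and in TC0900002115 the lowest rat, at 13.84, is SR replicate 5.

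The members with a blank symbol and those with a token moved differently from rat to rat. Measured as the median over clusters of signal minus the CT mean, the 172 blank members were at -0.55 in SR replicate 5, against -0.16 to 0.11 in the other 5 SR rats. The same measure lay between 0.02 and 0.13 in SS, -0.02 and 0.18 in YSR, -0.11 and 0.16 in YSS, and -0.16 and 0.21 in CT. The 481 members with a token were at 0.20 in SR replicate 5, so that this rat was low for blank members and at the top of its group for the others. The 1261 noncoding clusters were also lowest in SR replicate 5, at -0.74, while the median over the 9044 tested clusters was 11.8 on that array and 11.6 to 11.9 over all arrays. SR replicate 5 had the lowest median over all clusters of the array, 4.87, against 4.913 to 5.22 on the other arrays. Its 95th percentile of negative controls was also the lowest, 9.635, against 9.643 to 10.32 on the other arrays. The next lowest values, in SR replicate 3 and SR replicate 6, were close, so SR replicate 5 did not stand apart on these measures. Of the 11 members that were lower in SR by either criterion used here, 7 had their lowest SR value in SR replicate 5. Among these 7 are TC0600002087 and TC1400001816, which share all their values, and the 11 were picked for low SR levels.

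**Figure D3:**
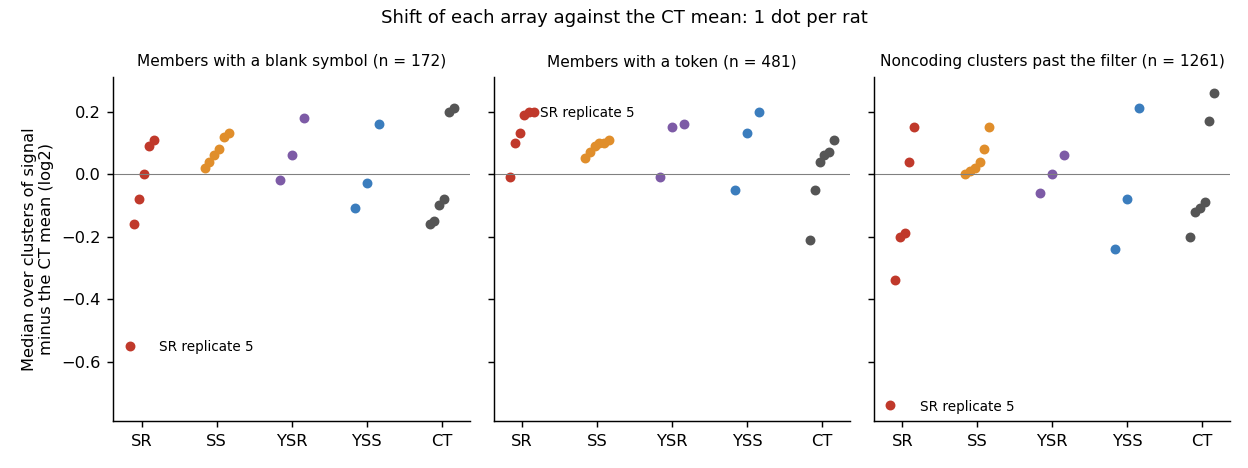
Median over clusters of the log2 signal minus the CT mean (y axis) for members with a blank symbol (n = 172), members with a token (n = 481) and noncoding clusters past the threshold (n = 1261), 1 dot per rat, by group. SR replicate 5 is labelled and lies at -0.55, 0.20 and -0.74.

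Over the blank members, the median SR minus CT difference was -0.09, with 1 called higher and 4 called lower, and over members with a token it was 0.14, with 10 called higher and 0 lower (28 and 36 of the blank members, and 122 and 13 of the others, had an unadjusted p under 0.05). Without SR replicate 5 the blank members had a median of 0.00 with 0 called (26 higher and 21 lower before adjustment at p under 0.05), and the others had a median of 0.12 with 2 called higher. Without CT replicate 3, the lowest CT rat for members with a token (-0.21), these had a median of 0.09 with 1 called. The count of members called moved with single rats in general: leaving out SR replicate 1 gave 102 and leaving out SR replicate 2 gave 57, against 15 with all rats. Whether these counts moved more than the share over all tested clusters is not given.

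Groups of members by product are given with their medians and counts, beside 15.9% higher and 5.38% lower before adjustment at p under 0.05 and 1.74% called higher over all tested clusters. The median SR minus CT difference was 0.20 over the 97 ribosomal protein members, of which 25 were higher and 1 lower before adjustment at p under 0.05, and 0 were called by limma. It was 0.28 over the 7 glyceraldehyde-3-phosphate dehydrogenase members (5 higher and 0 lower before adjustment at p under 0.05, 2 called higher), 0.20 over the 16 cytoskeletal members (6 and 0, 1 called), 0.20 over the 10 translation factors (3 and 0, 1 called) and 0.24 over the 9 mitochondrial members (4 and 0, 0 called). The 15 zinc finger members had a median of 0.01, with 1 higher and 1 lower before adjustment at p under 0.05. The 173 members with no description had -0.09, with 29 higher and 36 lower. All of these medians stand beside 0.03 over all tested clusters. Against CT the ribosomal members were also shifted in the other groups: their median was 0.13 in SS, 0.17 in YSR and 0.22 in YSS against CT, with 9, 8 and 16 of 97 higher before adjustment at p under 0.05 (5.97%, 2.65% and 2.19% of all tested clusters), and 0.02 in SR against YSR. For the glyceraldehyde-3-phosphate dehydrogenase members it was 0.18 in SS, 0.17 in YSR and 0.05 in YSS against CT, and for the cytoskeletal members 0.22, 0.19 and 0.07. In the ribosomal members the array medians against the CT mean ranged over -0.02 to 0.29 in SR, 0.01 to 0.26 in SS, 0.00 to 0.30 in YSR, -0.11 to 0.43 in YSS and -0.35 to 0.25 in CT, so the groups overlapped.

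For 128 members a named gene could be set beside them, through a shared RGD or LOC identifier (52), a RefSeq symbol of a copy (38) or the product name (38). These were 84 genes, and 99 of the members lay on another chromosome than their gene. The median SR minus CT difference was 0.17 over the 128 members and 0.18 over their genes, each gene counted once per member. The sign was the same in 111 pairs and the median absolute gap was 0.065. Of all tested clusters 57.0% had a positive difference, and the share of equal signs among unlinked pairs was not tested. In the 99 pairs on different chromosomes the medians were 0.19 for members and 0.19 for genes. Whether a probe of a copy also captures RNA of its parent was not tested, and the difference between the 2 was not tested either.

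Tpi1, the isomerase of glycolysis, was 0.33 ± 0.080 higher in SR (adjusted p = 0.0381, limma), beside 0.40 and 0.49 for its linked members TC1700001607 and TC0800002121. The 8 members linked to Gapdh had differences of 0.21 to 0.41, and Gapdh itself had 0.19 ± 0.064 (adjusted p = 0.0923, limma). Of the 128 members, 75 had a larger difference than their gene and 53 a smaller one, and 114 lay within 0.2 of it. Members linked to Ldha (0.57), Stmn1 (0.63) and Cfl1 (0.47) had larger point estimates than their genes (0.30, 0.27 and 0.26), with SE of 0.152, 0.217 and 0.149 for the members, and were picked for these gaps.

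**Figure D4:**
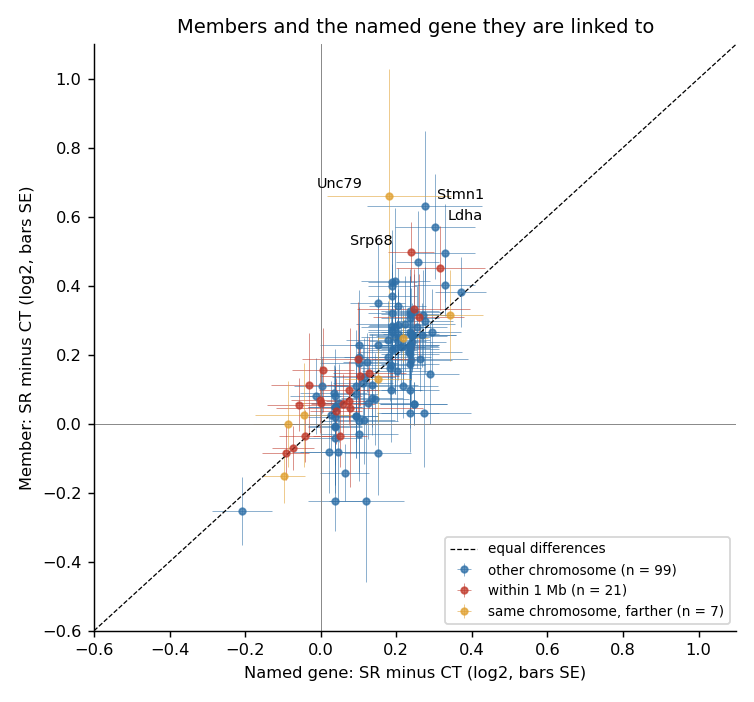
SR minus CT log2 difference of each linked member (y axis) against that of its named gene (x axis), with SE bars and the line of equal differences; the 1 pair without a position is left out. Pairs on different chromosomes (blue) cluster near the line, with medians of 0.19 for members and 0.19 for genes.

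By the study's criterion of a 1.7-fold difference and an unadjusted p under 0.05, 8 members were lower and 0 higher in SR than in CT (0.796% and 0.177% of all tested clusters). Beside TC0900002115 they included TC1000002206 (chr10:4930994-4933211, 12700 bp from Prm1), at -0.94 ± 0.284, TC0400001706 (chr4:153710864-153714407), at -0.88 ± 0.265, and TC0800000331 (chr8:33085267-33115039), at -0.86 ± 0.245. Their unadjusted p were 0.00310, 0.00318 and 0.00189 and their adjusted p 0.0669, 0.0673 and 0.0579 (limma). With equal array medians 3 members passed. The count of 8 fell to 3 without SR replicate 5 and to 5 without CT replicate 2, 3 or 5. TC1000002206 and TC0800000331 lost the criterion without SR replicate 5, TC1000002206 also without CT replicate 5, and TC0400001706 without CT replicate 3. The 8 include a globin cluster on the unplaced contig AABR07024041 (-0.82, unadjusted p = 0.0431, limma), which passed the expression threshold through the CT rats, so that a lower level than CT is partly built into its choice. TC0400001706 was below the CT range in 5 SR rats and in all 6 SS rats, with lowest, median and highest values of 12.47, 12.85 and 13.87 in SR, 12.78, 13.22 and 13.47 in SS, and 13.54, 13.75 and 14.49 in CT.

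For SS against CT, the rats that cut their intake against controls, limma called 0 members and 0.0% of all clusters, while before adjustment 76 members had a p under 0.05, 66 higher and 10 lower (6.93% of all clusters, 5.97% higher and 0.962% lower). The median difference was 0.09 over members and 0.07 over all tested clusters. A single member passed the 1.7-fold criterion (0.0774% of all clusters were past it in that direction). This was TC0600001420, a 7207 bp cluster of 25 probes at chr6:128957036-128964242 that RefSeq assigns to Unc79, a subunit of the sodium leak channel complex that sets neuronal resting excitability. Its lowest, median and highest signals were 9.59, 11.13 and 11.83 in SR, 11.27, 11.70 and 11.98 in SS, and 9.69, 9.95 and 11.31 in CT. The yoked rats had 10.05, 11.29 and 11.41 in YSR, and 9.86, 10.56 and 11.27 in YSS. The SS rats were the tightest group, with 4 of 6 above all CT rats, and the CT rats spread over 1.62 log2 units. The difference of SS from CT was 1.34 ± 0.367 (unadjusted p = 0.00141, adjusted p = 0.381, limma), and that of SS from YSS was 1.09 ± 0.449 (unadjusted p = 0.0239, adjusted p = 0.826, limma). The Unc79 cluster itself had medians of 11.70 in SR, 11.83 in SS and 11.37 in CT.

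SR against SS compares the kinds of drug takers. Control arrays do not enter its difference, but they enter the shared estimate of spread and the choice of members and tested clusters. Limma called 0 members and 0.0% of all clusters, and before adjustment 69 members had a p under 0.05, 37 higher and 32 lower in SR (12.5% of all clusters, 5.76% higher and 6.77% lower). The 1.7-fold criterion was passed by 3 members, all lower in SR (0.774% of all clusters). TC1000004379 (chr10:94083416-94085544), described as similar to angiotensin-converting enzyme and lying within the span of Tanc2, had lowest, median and highest values of 11.06, 11.93 and 13.56 in SR, against 12.10, 12.93 and 13.97 in SS. The groups overlapped, and the difference was -0.94 ± 0.358 (unadjusted p = 0.0150, adjusted p = 0.378, limma). TC0800001007, a 405 bp cluster within Rora, a nuclear receptor gene of the circadian system, differed by -0.82 ± 0.281 and exceeded the negative controls' 95th percentile on 2 of 24 arrays. TC0800000331 differed by -0.78 ± 0.245, below the SS range in 4 of 6 SR rats. It lost the criterion in 7 of the 24 fits that left out 1 array, TC0800001007 in 4 and TC1000004379 in 2.

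In the yoked rats limma called 0 members and 0.0% of all clusters in YSR against CT (34 higher and 1 lower before adjustment at p under 0.05, 2.65% and 0.343% of all clusters), in YSS against CT (34 and 6, 2.19% and 0.630% of all clusters and 2.82% together) and in YSR against YSS (4 and 3, 0.641% and 0.321%). The 1.7-fold criterion was passed by 3 members in YSS against CT, all lower (0.0663% of all clusters), by 0 in YSR against CT (0.0774% of all clusters were higher and 0.0221% lower) and by 0 in YSR against YSS (0.0885%). All 3 are beta globin clusters, which belong to the oxygen carrier of red blood cells. TC0100002239, Hbbl1 in RefSeq, lies at chr1:168957460-168958836, 12431 bp from Hbb. It had 9.76, 10.07 and 10.87 in YSS, against a lowest, median and highest of 10.92, 11.92 and 13.08 in CT, with the 3 YSS rats below all CT rats. The difference was -1.69 ± 0.558 (unadjusted p = 0.00600, adjusted p = 1.0, limma).

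The other globin members were Hbb-bs, which had no position, at -1.54 ± 0.458, and the cluster on the unplaced contig AABR07024041, at -1.47 ± 0.469 (unadjusted p = 0.00278 and 0.00486, limma, with adjusted p of 1.0). These 2 passed the expression threshold through the CT rats, did not pass it over all 24 arrays, and exceeded the 95th percentile of negative controls on 5 and 2 arrays, so their being lower in YSS is partly built into their choice. Hbbl1 ranged over 9.92 to 12.39 in SR, 10.02 to 12.29 in SS and 11.33 to 11.39 in YSR. The named blood marker Hbb-b1 moved alike, at 9.43, 9.47 and 10.31 in YSS, against a lowest, median and highest of 10.42, 11.32 and 12.29 in CT (difference -1.58 ± 0.544, unadjusted p = 0.00807, limma). Of the 3 blood markers measured, 1 was above the threshold. The part of residual blood in the tissue was not tested.

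**Figure D5:**
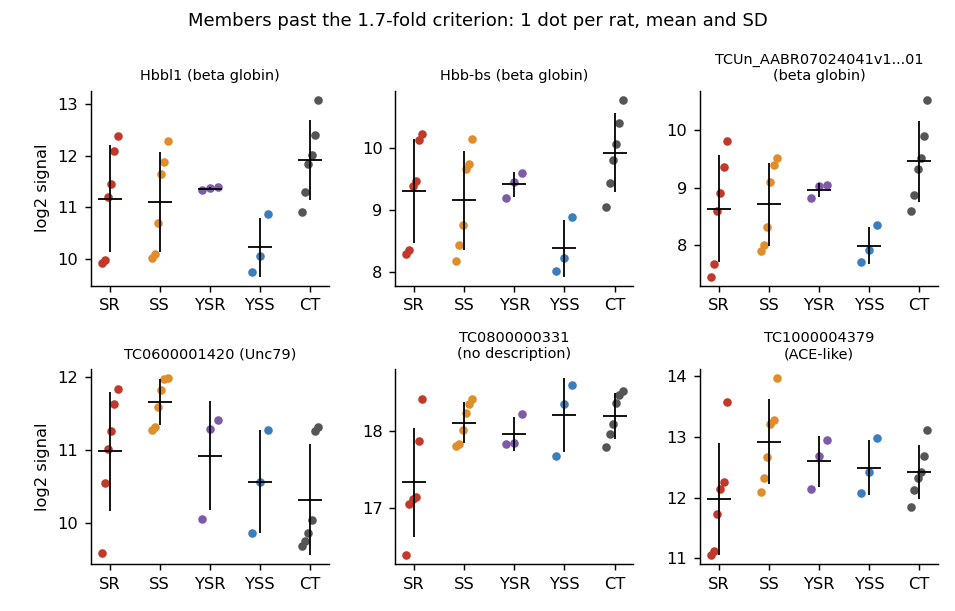
Log2 signal (y axis) of 6 members past the 1.7-fold criterion in SR, SS, YSR, YSS and CT, 1 dot per rat, with the mean (dash) and SD (bar). The 3 beta globin members (top row) have their lowest group mean in YSS, and TC0600001420 has its highest group mean in SS, with the SS rats between 11.27 and 11.98.

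Against their yoked partners, drug takers had 0 members called by limma in SR against YSR (22 higher and 23 lower before adjustment at p under 0.05, 3.54% and 2.79% of all clusters) and 0 in SS against YSS (20 and 12, 3.86% and 1.60%). In SR against YSR the 1.7-fold criterion was passed by TC0400000624 (chr4:62019922-62031170), similar to an aldose reductase-related protein, at 0.85 ± 0.346, and by TC1600001158 (chr16:6869187-6869807), opposite Sfmbt1, at -0.86 ± 0.326 (0.0885% of all clusters were higher and 0.542% lower by it). The adjusted p was 0.699 for both (limma). Without YSR replicate 1 both lost the criterion, TC0400000624 with a difference of 0.47, and TC1600001158 lost it without SR replicate 5 as well. TC1600001158 lay near the threshold (CT mean 9.48) and exceeded the negative controls' 95th percentile on 2 arrays. In SS against YSS the criterion was passed by 1 member, TC0600001420 (0.155% of all clusters were higher by it), which lost it without YSS replicate 2 or 3.

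Both drug groups set against the 3 saline groups gave 1 member called, higher in the drug groups (0.265% of all clusters were called in that direction). This contrast was chosen because a cluster with such a pattern was already known in these data. Its saline side includes the CT rats, for which no footshocks are described, so it is not a contrast of drug alone. TC1000001633, with a blank symbol, 6590 bp and 102 probes, lies at chr10:88490770-88497359, 896 bp from Dnajc7, which encodes a co-chaperone of heat shock proteins. Its lowest, median and highest signals were 9.78, 10.18 and 10.98 in SR, 9.64, 9.91 and 10.45 in SS, and 9.42, 9.68 and 9.91 in CT. The yoked rats had 9.34, 9.57 and 9.83 in YSR, and 9.16, 9.36 and 9.59 in YSS. Of the SR rats 5 and of the SS rats 3 were above the CT range, and the difference of drug from saline groups was 0.58 ± 0.122 (adjusted p = 0.0400, limma). It exceeded the 95th percentile of negative controls on 7 of 24 arrays, and the call was lost with equal array medians, without a filter and in 14 of 24 fits that left out 1 array. The 4 oligodendrocyte markers above the threshold were all higher in the drug groups before adjustment at p under 0.05 in this contrast, with a median of 0.41 and summed levels of 16.03 to 16.63 in SR, 16.13 to 16.59 in SS, 15.88 to 16.14 in YSR, 15.73 to 16.08 in YSS and 15.83 to 16.23 in CT. Other tissue markers varied too. Slc17a7, the 1 cortical glutamatergic neuron marker above the threshold, was lower in the drug groups (-1.28) before adjustment at p under 0.05. Choroid plexus markers, 0 of them above the threshold, had summed levels of 7.09 to 15.92 in SS and up to 7.66 in the other groups. The lowest SS level lay within the range of the others, and Ttr had a mean of 7.56 and an SD of 4.09 in SS. The high level was therefore not a trait of the SS group as a whole. The part of these cell types in the result was not tested.

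Across all 5 groups at once, the moderated F test of limma called 0 members, beside 0.0111% of all clusters, and 90 members had an unadjusted p under 0.05 (10.8% of all clusters). Comparisons against CT share the same 6 control rats and are therefore not independent of each other. TC1900000726, the longest member, was 0.26 ± 0.079 higher in SR than in CT (adjusted p = 0.0652, limma), with all 6 SR rats above all SS rats. TC0400000802, which RefSeq matches to Cntnap2, had lowest, median and highest values of 11.34, 11.45 and 11.57 in SR, against 11.03, 11.39 and 11.60 in CT, which overlapped fully.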

How the data were processed

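The values are the authors' deposited log2 signals, and the submitters' notes on processing name Affymetrix Expression Console. No source used here gives the background correction, the normalization or the genome build. A second deposited table supplied annotation, spans and probe counts. Its bi-weight averages, fold changes, p-values and FDR p-values were not used.

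All 24 arrays entered 1 limma fit (limma 3.58.1, R 4.3.3; tables in Python 3.11.15) of 5 groups over the 9044 clusters above bioB, with 9 contrasts and a moderated F test. All tests were two-sided, with Benjamini-Hochberg adjustment over these clusters. The step was checked on simulated data, with 100 clusters changed in SR at each of 2 sizes. It recovered 29% of the 1.3-fold and 87% of the 1.7-fold changes in SR against CT, with 4 false calls. The simulated noise was independent between clusters, without shifts shared by an array. Members named are the first 6 by F test, up to 4 per direction and contrast by adjusted call and by the 1.7-fold criterion, the 5 highest in CT, the longest and shortest, those at the threshold and up to 8 with a RefSeq name. The Minar2, Gapdh, Ldha, Stmn1 and Cfl1 pairs, the remaining called members and single rats were named after their values were seen.

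The rule, members and lists were chosen with earlier results of these data known. The control level chose the members, so comparisons with CT reuse those arrays. Over all 24 arrays, which include the CT arrays, 650 of 653 passed the lower bioB mean of 9.396. The SR mean was above the CT threshold for 642 members, and all 4 other group means were above it for 635. Neighbours were sought among 16369 named clusters that RefSeq places on the same chromosome and that span up to 3 Mb. The number of arrays limits the precision. 1 linked pair is not reported here.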

Additional observations from a re-analysis of the deposited data

Results flagged for a closer look

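In groups of 6 rats, the most extreme rat of each named member was set against the spread of the others, over 63 groups of 21 members. This marked 5 groups, where chance gives about 1 in 20. For TC0600002530, similar to eIF4A1, SR replicate 5 was at 10.97, with the other SR rats at 10.67 to 10.76, and SS replicate 4 was at 11.23, with the other SS rats at 10.50 to 10.74. SS replicate 4 was also the highest SS rat for TC0600002087 and TC1400001816, which share their values, at 15.92, with the others at 15.65 to 15.75. For TC0200001507 it was at 10.02, with the others at 9.61 to 9.72.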

How the results depend on the processing

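0 of the 22 single-member differences reversed in sign, while the counts of members had no sign that could reverse. Of 22 single-member results, 4 stayed past the threshold that named them under all alternatives and all left-out arrays. They were TC0600001420 in SS against CT and the 3 globin members in YSS against CT. Of these globin members, 2 are no members under a filter over all 24 arrays. All 4 results were named by the 1.7-fold criterion, not by an adjusted p. Every result named by an adjusted p lost its call in some fit. Calls depended most on single rats and on array weights. The counts below are of members alone, and the shares over all tested clusters in the same fits are not given. With array weights, members called were 152 in SRvsCT, 3 in SSvsCT, 38 in SRvsSS, 5 in YSRvsCT, 2 in SRvsYSR, 31 in drug against saline and 43 by F test, and members past the 1.7-fold criterion were 4 in SSvsCT, 5 in YSRvsCT, 1 in YSRvsYSS, 4 in SRvsYSR and 1 in drug against saline. With compared groups alone, 0 were called in SRvsCT and 3 passed the criterion in YSRvsYSS. With equal array medians, 34 were called in SRvsCT and 0 in drug against saline, and 3 passed the criterion in SRvsCT and 1 in YSRvsYSS. Without a filter, 2 were called in SRvsCT and 0 in drug against saline, and 2 passed in SSvsCT. With the filter over all arrays, 3 were called in drug against saline and 1 passed in YSSvsCT. Quantile normalization gave 6 in drug against saline. The cause was not tested.

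With the replicate number as a block, 4 were called in SRvsCT and 0 in drug against saline, and 2 passed the criterion in SSvsCT, 7 in YSSvsCT, 1 in YSRvsYSS, 1 in SRvsYSR and 4 in SSvsYSS. TC0400000624 in SRvsYSR and TC1000001633 in drug against saline were not past their thresholds with it. Deviations from the group means correlated at -0.55 to 0.57 between same-numbered rats of different groups, and at -0.66 to 0.66 between differently numbered ones. The labels do not say whether the numbers pair the rats, and these correlations cannot settle it.

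Leaving out 1 array in turn gave 0 (without SR replicate 3) to 102 (without SR replicate 1) members called in SRvsCT, 0 to 14 in SRvsSS, 0 to 20 in drug against saline and 0 to 12 by F test. For SRvsCT it gave 1 without CT replicate 3 or SR replicate 6, 2 without CT replicate 2 or SR replicate 5, 5 without SR replicate 4 or SS replicate 3, 6 without CT replicate 5 or 6, 9 without SS replicate 2, 29 without YSS replicate 1 and 57 without SR replicate 2. Members past the criterion ranged over 3 to 10 in SRvsCT, 1 to 4 in SSvsCT, 1 to 7 in SRvsSS, 0 to 5 in YSRvsCT, 3 to 10 in YSSvsCT, 0 to 2 in YSRvsYSS, 1 to 10 in SRvsYSR, 1 to 2 in SSvsYSS and 0 to 1 in drug against saline. The F test and drug against saline use all groups, so no fit of compared groups alone was made. Signal near the negative controls limits the 235 members not above their 95th percentile on every array.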
